A study of Gloeophyllum trabeum and Trametes versicolor with 18 samples.

Results

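The genes described here are transcripts of the brown-rot fungus *Gloeophyllum trabeum* whose level on dead fungal biomass was a small part of that on glucose, whether or not the biomass was rich in melanin. They number 145 of 11880 transcripts measured, or 1.22%. They were chosen by their measured levels: the mean TPM (a transcript level per length, scaled to the same total in each library) on glucose, with 1 added, had to be at least 6 times that on low-melanin necromass and at least 6 times that on high-melanin necromass. The ratio of the high-melanin to the low-melanin mean had to lie strictly within a factor of 1.5 of equality. The highest of the 6 necromass libraries had to lie below the lowest of the 3 glucose libraries. The loss on necromass, and its likeness on both types, are therefore how the genes were found and not a finding about them.

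RNA sequencing was done on strain ATCC 11539 grown for 7 days in Highley's medium. The carbon source was 1% (w/v) glucose, 0.45% (w/v) low-melanin fungal necromass or 0.45% high-melanin fungal necromass, with 3 libraries each. All cultures shared the strain, the medium and the day, and the carbon sources were supplied at different concentrations. Whether the replicates are separate cultures is not given in the labels, and their spread may be partly technical. As these are bulk samples of mycelium, fewer cells holding a transcript and less of it per cell cannot be told apart.

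Necromass is dead fungal biomass, made mostly of cell-wall polymers such as chitin and glucans together with protein, and melanin is a dark pigment that many fungi lay down in their walls. In many fungi glucose represses genes for the use of other carbon sources, a control known as carbon catabolite repression, while genes for sugar uptake and rapid growth are often high on glucose. Brown-rot fungi break down the polysaccharides of wood and leave much of its lignin in modified form. The gene table used here gives locus tags and no functions, so members are named by locus tag alone and no role is given for them.

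Total estimated counts per *G. trabeum* library ranged from 18050313 to 25342327. Between libraries of a group, the chi-square of their counts was at least 30.7 per degree of freedom, so no library repeated another within sampling noise. Low-melanin replicate 1 was set apart by a group of 4 neighbouring transcripts led by GLOTRDRAFT_134131, which took 30.0% of its TPM and 1.11% to 7.94% in the other 8 libraries. Because TPM values sum to a fixed total, this lowers the other transcripts of that library. Mean fragment length was 317.9 bases in glucose replicate 1 and 246 to 270.1 bases in the other libraries, which bears most on the levels of short transcripts.

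Of all transcripts, 265 met the 6-fold limit on low-melanin necromass and 293 on high-melanin necromass, and 207 met both. The bound on the ratio between necromass types removed 37 that were lower on the high-melanin type and 25 that were lower on the low-melanin type. The requirement that libraries not overlap removed none of the rest. Just inside the limit lay GLOTRDRAFT_127898, whose smaller ratio was 6.03, with means of 70.7 TPM on glucose, 9.93 on low-melanin necromass and 10.9 on the high-melanin type. GLOTRDRAFT_46657 also had a ratio of 6.03. Just outside lay GLOTRDRAFT_132673 at 5.99, with means of 119.7, 12.8 and 19.2 TPM in the same order, and GLOTRDRAFT_24256 at 5.90. Genes on either side of the limit thus differed little. The same rule turned around, for transcripts at least 6 times higher on both necromass types, held 117 transcripts.

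The members together took 6.45%, 6.32% and 6.70% of TPM in the 3 glucose libraries, a mean of 6.49% ± 0.19 (SD, n = 3). On low-melanin necromass they took 0.343%, 0.422% and 0.435%, a mean of 0.3999% ± 0.049 (SD, n = 3), and on high-melanin necromass 0.421%, 0.404% and 0.418%, a mean of 0.414% ± 0.0090 (SD, n = 3). All 6 necromass libraries lay far below the glucose libraries and close to each other. The median member stood at 180 to 183.9 TPM in the glucose libraries and at 9.88 to 12.2 TPM in the necromass libraries. Of the 100 most abundant transcripts on glucose, 12 were members, and none of the 100 most abundant on necromass was. The rule requires glucose means at least 6 times those on necromass, so the gap and these places are partly built in.

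**Figure D1:**
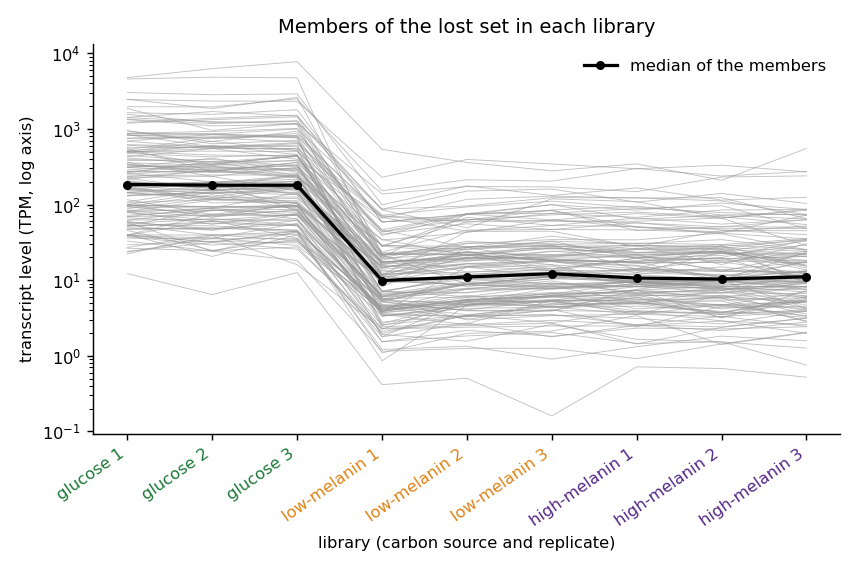
Level of each of the 145 members in the 9 libraries, in TPM on a log axis, with 1 grey line per member and the median in black. The median lies at 180 TPM or more in each glucose library and at 9.88 to 12.2 TPM in the 6 necromass libraries.

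Member levels on glucose ran from 10.4 to 6259.6 TPM, with a median of 183 TPM. The 15 members at 1000 TPM or more had a median ratio of glucose to the larger necromass level of 21.4, within a range of 6.18 to 272.2. The 83 members from 100 to 1000 TPM had a median ratio of 11.3, and the 47 members below 100 TPM one of 7.38 and at most 22.7. With 1 TPM added to each mean, the ratio a low transcript can reach is bounded, so these ratios are not compared further. Over all members, 71 had a ratio of at least 10, 35 of at least 20, 11 of at least 50 and 3 of at least 100.

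**Figure D2:**
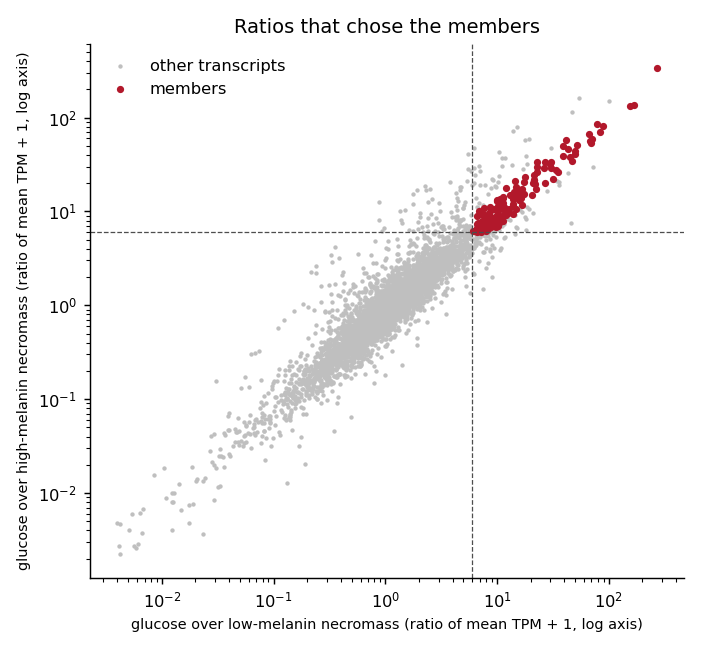
Ratio of the mean level on glucose to that on low-melanin necromass (horizontal) and on high-melanin necromass (vertical), each from mean TPM with 1 added, on log axes. The 145 members (red) lie above the dashed 6-fold limits, and both axes share the glucose libraries, so the alignment of the points along the diagonal is partly built in.

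GLOTRDRAFT_127959 was the most abundant member on glucose and ranked 10 among all transcripts there. It stood at 4769.8, 6263.6 and 7745.3 TPM on glucose, at 536.6, 360.1 and 279.0 on low-melanin necromass and at 345.2, 209.3 and 551.0 on high-melanin necromass. It was also the most abundant member left on necromass, and its 2 highest necromass values came from different types. Its transcript is 195 bases long, shorter than a typical fragment, so its TPM leans on the fragment length of each library.

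GLOTRDRAFT_108386 was the most strongly reduced member. It stood at 4572.6, 4833.9 and 4736.0 TPM on glucose, where it ranked 17 among all transcripts. On low-melanin necromass it stood at 15.5, 15.3 and 18.1 TPM, and on high-melanin necromass at 17.2, 10.6 and 11.4 TPM. The coefficient of variation over the glucose libraries was 2.80%, while the glucose mean was 272.2 times the larger necromass mean with 1 added. On necromass the gene ranked only 6748 among all transcripts, so a leading transcript of the glucose cultures lay in the lower part of the table there.

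The next largest ratios were 137 for GLOTRDRAFT_105906 and 133 for GLOTRDRAFT_108506. GLOTRDRAFT_105906 stood at 816.5, 837.0 and 759.5 TPM on glucose, at 3.62, 3.25 and 4.64 on low-melanin necromass and at 5.88, 3.21 and 5.60 on high-melanin necromass. GLOTRDRAFT_108506 stood at 854.1, 866.6 and 769.5 TPM on glucose, at 3.31, 4.63 and 5.19 on low-melanin necromass and at 6.30, 4.16 and 5.23 on high-melanin necromass. Both were lowest of the glucose libraries in replicate 3, and the ranges of their low-melanin and high-melanin values overlapped.

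GLOTRDRAFT_45373 had the fourth largest ratio, 82.1, with a wider spread on glucose. It stood at 552.4, 274.2 and 360.6 TPM there, at 2.41, 2.66 and 5.41 on low-melanin necromass and at 3.92, 3.67 and 3.91 on high-melanin necromass. GLOTRDRAFT_80390 stood at 1329.1, 1098.4 and 1148.2 TPM on glucose, and between 11.8 and 16.0 TPM in every necromass library, a ratio of 78.8. GLOTRDRAFT_21127, with a transcript of 222 bases, stood at 2465.4, 1859.8 and 2608.9 TPM on glucose and between 22.6 and 35.4 TPM on necromass, a ratio of 70.2. These genes thus reached similar ratios from glucose levels that lay several-fold apart.

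GLOTRDRAFT_104526 had the smallest coefficient of variation over the glucose libraries, 2.31%, among the 10 members with the largest ratios. It stood at 571.7, 566.5 and 547.1 TPM on glucose, at 6.04, 7.58 and 7.67 on low-melanin necromass and at 9.70, 7.31 and 11.7 on high-melanin necromass, a ratio of 53.2. The other 3 of these 10, GLOTRDRAFT_129231, GLOTRDRAFT_129229 and GLOTRDRAFT_76253, belong to 1 run of neighbouring members and are described with the runs.

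Other members among the 10 most abundant on glucose kept more of their level. GLOTRDRAFT_96584 stood at 3031.4, 2834.1 and 2900.2 TPM on glucose and between 99.1 and 176.7 on necromass. GLOTRDRAFT_70192 stood at 1639.9, 1559.2 and 1793.8 TPM on glucose, at 58.7, 74.9 and 82.9 on low-melanin necromass and at 45.2, 50.9 and 50.2 on high-melanin necromass, where all 3 libraries lay below those of the low-melanin type. GLOTRDRAFT_111160 had means of 1375.1 TPM on glucose, 64.9 on low-melanin necromass and 67.6 on the high-melanin type. GLOTRDRAFT_140017 had means of 1350.8, 49.4 and 39.2 TPM in the same order. For the last of these the necromass libraries spread from 25.3 to 67.6 TPM and the types overlapped.

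**Figure D3:**
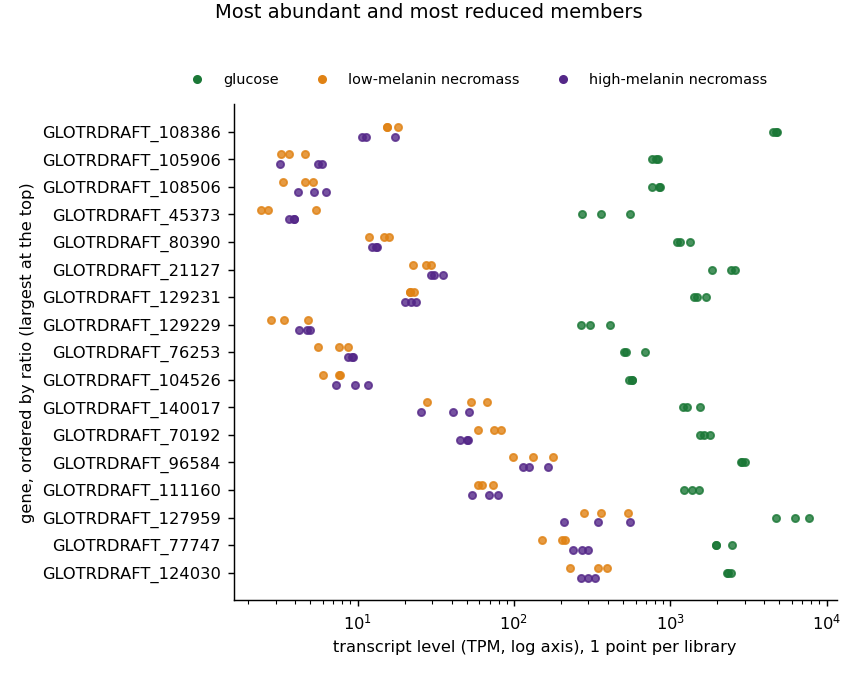
Levels of the members with the highest glucose means and the largest ratios, in TPM on a log axis, with 1 point per library and genes ordered by ratio. For every gene shown the 3 glucose points lie apart from the 6 necromass points, as the rule requires, and the gap is widest for GLOTRDRAFT_108386.

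Loss on necromass was seldom to silence. In every necromass library 18 members lay below 5 TPM and 58 below 10 TPM, and 4 members stayed at 100 TPM or more in all 6. These were GLOTRDRAFT_127959, GLOTRDRAFT_124030, GLOTRDRAFT_77747 and GLOTRDRAFT_127971. GLOTRDRAFT_124030 stood at 2448.0, 2337.4 and 2315.3 TPM on glucose, at 229.5, 394.8 and 344.0 on low-melanin necromass and at 297.3, 331.1 and 270.4 on high-melanin necromass. GLOTRDRAFT_77747 stood at 1966.8, 1955.3 and 2502.8 TPM on glucose, at 152.1, 212.4 and 203.9 on low-melanin necromass and at 299.3, 237.8 and 274.2 on high-melanin necromass. For this gene every high-melanin library lay above every low-melanin library in TPM. The count model described below did not call that difference, at a log2 fold change of 0.31 ± 0.18 (SE). The least abundant member, GLOTRDRAFT_95218, had a glucose mean of 10.4 TPM and a necromass mean of 0.498 TPM. Its lowest estimated count was 3, while 144 of the 145 members had at least 10 estimated counts in every library.

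In a count model over all genes, fitted with edgeR's quasi-likelihood test to the 10728 genes that passed the filter on low counts, all 145 members were tested. All 145 were called lower on low-melanin necromass than on glucose at a Benjamini-Hochberg adjusted p under 0.05, where 27.6% of all genes tested were called lower. All 145 were also called lower on high-melanin necromass, where 29.3% of all genes were. The rule used these comparisons, and they share the glucose libraries, so nothing is read from the counts. Log2 fold changes of the members ran from -7.91 to -2.45 on low-melanin necromass, with a median of -3.35 against 0.02 for all genes. On high-melanin necromass they ran from -8.47 to -2.56, with a median of -3.52 against 0.03. The median standard error of a member was 0.22 in both comparisons.

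The fold changes of the leading members put the same values on the scale of counts. GLOTRDRAFT_108386 had a log2 fold change of -7.91 ± 0.25 (SE) on low-melanin necromass and -8.47 ± 0.25 on the high-melanin type. GLOTRDRAFT_127959 had -3.66 ± 0.47 and -4.03 ± 0.48, the widest errors among the 10 most abundant members. GLOTRDRAFT_124030, at -2.54 ± 0.16 and -2.91 ± 0.16, changed least of these 10 on both types. GLOTRDRAFT_105906 and GLOTRDRAFT_108506 had -7.47 ± 0.31 and -7.30 ± 0.21 on low-melanin necromass.

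The rule bounds the difference between necromass types, and within that bound the order of the types depended on the scale. In TPM the high-melanin to low-melanin ratio had a median of 1.06, with 89 members above 1 and 56 below. Without the 4 transcripts that filled low-melanin replicate 1 the median was 0.959, with 60 above and 85 below. In the count model the log2 fold change between the types had a median of -0.09, with 55 members above 0 and 90 below. No common direction between the types can therefore be given for the members as a set.

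At an adjusted p under 0.05 in edgeR's test, 8 of the 145 members were called lower on the high-melanin type and none higher. Of all genes tested, 6.71% were called in either direction, and the members' share was no larger. The rule bounds this ratio, so nothing is read from the number called or its direction. They were GLOTRDRAFT_60937, GLOTRDRAFT_33368, GLOTRDRAFT_112616, GLOTRDRAFT_70192, GLOTRDRAFT_101783, GLOTRDRAFT_49072, GLOTRDRAFT_122425 and GLOTRDRAFT_128091, with log2 fold changes between -0.85 and -0.56. Apart from GLOTRDRAFT_60937, GLOTRDRAFT_33368 and GLOTRDRAFT_70192, these were named after their values were seen. GLOTRDRAFT_101783 and GLOTRDRAFT_128091 share reads with other transcripts and overlap another gene of the reference, so their levels are uncertain. The number was 3, 2 and 4 without low-melanin replicate 1, 2 or 3, and 1, 4 and 11 without high-melanin replicate 1, 2 or 3, and DESeq2 called 17.

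The members at the ends of the permitted range show how far the types could differ. GLOTRDRAFT_60937, with the smallest ratio of 0.673, stood at 186.1, 192.4 and 135.0 TPM on glucose, at 11.1, 15.2 and 13.5 on low-melanin necromass and at 8.19, 10.01 and 7.57 on high-melanin necromass. GLOTRDRAFT_33368 had a ratio of 0.680, with 21.3, 25.5 and 29.0 TPM on the low-melanin and 13.8, 18.5 and 18.2 on the high-melanin type. In both genes the types did not overlap. At the other end GLOTRDRAFT_110934 had a ratio of 1.495, with means of 279.5 TPM on glucose, 19.1 on the low-melanin and 29.1 on the high-melanin type. Its types did not overlap either, with 17.7 to 20.1 TPM on the low-melanin and 26.2 to 34.7 on the high-melanin type. Its level is uncertain, as it shares reads with another transcript. GLOTRDRAFT_133269 had means of 58.4, 4.84 and 7.53 TPM. The count model called neither GLOTRDRAFT_110934 nor GLOTRDRAFT_133269 between the types, at log2 fold changes of 0.41 ± 0.20 and 0.44 ± 0.13 (SE).

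Members differed in how evenly the 3 glucose libraries expressed them, which the rule did not use beyond the mean and the lowest library. The coefficient of variation over the glucose libraries had a median of 11.9% over members, beside 8.82% over the 7681 transcripts with a glucose level from that of the lowest member upwards. Those 7681 include the members and are matched to them at the lowest level alone, so the medians are not like for like. The coefficient was smallest for GLOTRDRAFT_133115, at 39.7, 39.5 and 39.9 TPM. It was largest for GLOTRDRAFT_125113, at 22.3, 38.8 and 16.0 TPM, a value of 45.8%. GLOTRDRAFT_103366 stood at 23.5, 35.9 and 56.4 TPM, and GLOTRDRAFT_131414 at 179.0, 200.6 and 81.7 TPM. The library that was highest thus differed from gene to gene. In TPM replicate 1 was highest for 52 members (35.9%), replicate 2 for 49 (33.8%) and replicate 3 for 44 (30.3%). Among 7536 other transcripts with a glucose level from that of the lowest member upwards, the shares were 24.3%, 41.4% and 34.3%. In TMM-scaled counts per library total, with no length term, the members' numbers were 78, 37 and 30. Shares of other transcripts were not taken on that scale, so whether this order is the members' own cannot be said. Over the 6 necromass libraries GLOTRDRAFT_125113 ran from 2.26 to 2.88 TPM, GLOTRDRAFT_103366 from 1.53 to 2.42 and GLOTRDRAFT_131414 from 3.22 to 4.65.

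On low-melanin necromass, replicate 1 was the lowest library for 104 of the 145 members in TPM. It was also the lowest for 85.1% of 7536 other transcripts with a glucose level in the members' range. Without the group of 4 transcripts led by GLOTRDRAFT_134131, replicate 1 was lowest for 45 members, replicate 2 for 57 and replicate 3 for 43, an alternative chosen after seeing the data. With TPM divided by TMM factors, which were fitted to counts and not to TPM, the numbers were 104, 23 and 18. In TMM-scaled counts per library total they were 55, 24 and 66, so which library was lowest depended on the scale. Shares of other transcripts were taken in deposited TPM alone. In TPM the median member stood in replicate 1 at 0.771 of the mean of the other 2 libraries, and the median of the other transcripts at 0.759. In TPM replicate 1 was thus low for the members and for other transcripts alike. Among the high-melanin libraries in TPM, replicate 3 was lowest for 56 members (38.6%) and for 72.0% of the other transcripts. It was highest for 53 members (36.55%) and for 17.2% of the others. In TMM-scaled counts per library total it was lowest for 26 members and highest for 100, so this order too depended on the scale.

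The members with the lowest ratio of low-melanin replicate 1 to the mean of the other 2 libraries were neighbours in the genome. GLOTRDRAFT_115949, GLOTRDRAFT_110978, GLOTRDRAFT_40769 and GLOTRDRAFT_15761 had values of 0.167, 0.264, 0.264 and 0.292, the 4 lowest of the 145, and they form an unbroken run of 4 genes in the reference order. GLOTRDRAFT_110978 stood at 20.03, 75.7 and 76.0 TPM in the 3 low-melanin libraries, and GLOTRDRAFT_40769 at 11.7, 44.0 and 44.4 TPM. GLOTRDRAFT_15761 stood at 3.75, 15.0 and 10.7 TPM and GLOTRDRAFT_115949 at 0.857, 4.68 and 5.59 TPM. All 4 were thus several-fold lower in replicate 1 than in the others, by more than that library's transcripts in general.

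On glucose the same run stood at means of 80.0 TPM for GLOTRDRAFT_15761, 46.8 for GLOTRDRAFT_115949, 297.8 for GLOTRDRAFT_40769 and 564.5 for GLOTRDRAFT_110978. On high-melanin necromass the means were 10.4, 5.48, 39.3 and 79.5 TPM. Directly before the run lies GLOTRDRAFT_40767, which was no member, with a ratio of 5.59 to the larger necromass level. It stood at 4.86, 22.5 and 21.5 TPM on low-melanin necromass, low in replicate 1 as its neighbours were. Before it lies another member, GLOTRDRAFT_10171, with a glucose mean of 366.5 TPM and a ratio of 17.3. All 6 genes in a row thus had lower means on both necromass types. GLOTRDRAFT_121179, on the far side, had means of 54.7 TPM on glucose, 53.4 on the low-melanin and 12.5 on the high-melanin type.

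Lying side by side was common among the members, a feature the rule did not use. Of the 145 members, 31 or 21.4% had another member as immediate neighbour in the gene order of assembly Glotr1_1, in 10 pairs, 1 run of 3 and 2 runs of 4. Of the 11738 other genes, 2.10% had a member as neighbour. For the 117 transcripts of the reversed rule, 8 or 6.84% had a neighbour of their own set, and 1.90% of the genes outside it did. With 1 gene allowed in between, the shares were 24.8% of members and 4.08% of other genes, and for the reversed rule 10.3% of its set and 3.72% of the genes outside it. No test was made of these shares.

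The second run of 4 held some of the most reduced members. GLOTRDRAFT_129229 stood at 308.4, 411.1 and 268.1 TPM on glucose, at 2.79, 3.40 and 4.85 on low-melanin necromass and at 4.95, 4.77 and 4.22 on high-melanin necromass. GLOTRDRAFT_76247 stood at 263.8, 371.7 and 239.3 TPM on glucose and between 3.99 and 8.20 on necromass. GLOTRDRAFT_129231, with a transcript of 171 bases, stood at 1423.8, 1696.6 and 1475.2 TPM on glucose and between 20.01 and 23.7 on necromass. In all of these the glucose replicate 2 was the highest library. The fourth gene, GLOTRDRAFT_76253, stood at 505.6, 687.3 and 517.8 TPM on glucose and between 5.62 and 9.33 on necromass, again highest in replicate 2. The ratios in gene order were 58.5, 34.6, 66.4 and 56.7.

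This run ended sharply on both sides. GLOTRDRAFT_76243, directly before it, had means of 14.2 TPM on glucose, 13.4 on low-melanin necromass and 16.0 on the high-melanin type. GLOTRDRAFT_105852, directly after it, had means of 24.6, 21.3 and 25.8 TPM. Neither neighbour showed the loss seen in the 4 genes between them.

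The run of 3 was less even. GLOTRDRAFT_133115, a transcript of 3237 bases and the longest member, had means of 39.7 TPM on glucose, 4.82 on low-melanin necromass and 4.53 on the high-melanin type. GLOTRDRAFT_133116 had means of 297.0, 19.0 and 27.4 TPM, and GLOTRDRAFT_96434 means of 154.2, 2.09 and 2.49 TPM. The ratios of these 3 neighbours were 6.99, 10.5 and 44.5. The gene before the run, GLOTRDRAFT_118014, was lower on both necromass types as well but short of the limit, at 73.1, 17.9 and 18.4 TPM.

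Among the pairs, GLOTRDRAFT_119349 and GLOTRDRAFT_33368 had glucose means of 1262 and 379.1 TPM and ratios of 9.46 and 14.5. GLOTRDRAFT_70192, described above, lies 1 gene further on, past GLOTRDRAFT_125377, which had a mean of at most 1.02 TPM on any carbon source. GLOTRDRAFT_32103 and GLOTRDRAFT_30388 had glucose means of 318.9 and 451.1 TPM and necromass means between 5.43 and 7.96 TPM. GLOTRDRAFT_140197 and GLOTRDRAFT_140198 had glucose means of 183.8 and 157.0 TPM, and the member GLOTRDRAFT_140195 lies 1 gene before them. The gene in between, GLOTRDRAFT_64108, had means of 157.4 TPM on glucose, 29.1 on the low-melanin and 31.7 on the high-melanin type, a ratio of 4.85. All 4 genes in that row thus had lower means on both types.

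**Figure D4:**
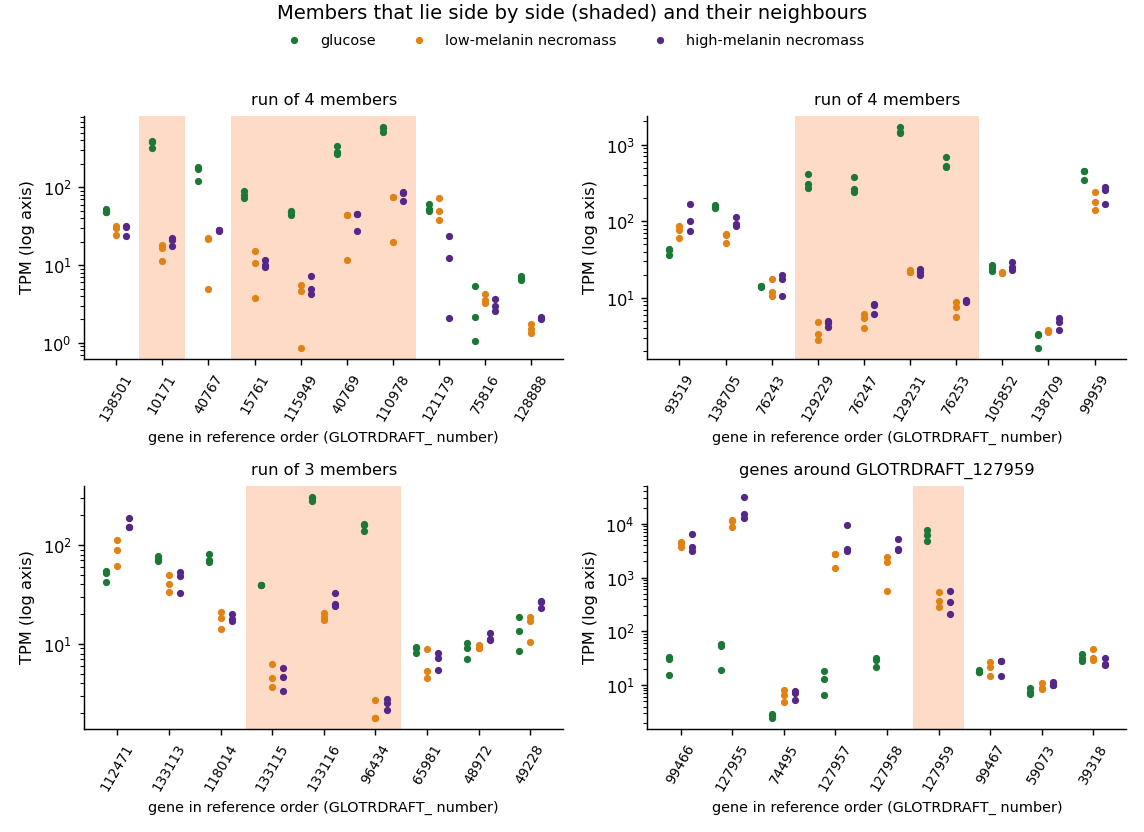
Levels of members that lie side by side (shaded) and of the genes around them, in TPM on a log axis, with 1 point per library and genes in reference order rather than to scale. The run with GLOTRDRAFT_129229 is bordered by genes with similar levels on all carbon sources. The genes shown before GLOTRDRAFT_127959 were higher on necromass.

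Beyond the runs, the 247 non-members that touch a member were looked at together. Of the 217 with at least 5 TPM on glucose, 49 or 22.6% were at least 2-fold lower on both necromass types, in mean TPM with 1 added. Among the 8722 other non-members at that level the share was 11.5%. The median ratio of glucose to the larger necromass level was 1.21 and 1.03. These shares are given without a test.

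The most abundant member, GLOTRDRAFT_127959, had genes of the opposite pattern before it in the gene order. The gene directly before it, GLOTRDRAFT_127958, stood at 21.6, 32.4 and 28.9 TPM on glucose, at 562.6, 2391.8 and 1931.1 on low-melanin necromass and at 3196.4, 3345.4 and 5098.8 on high-melanin necromass. GLOTRDRAFT_127957, a further gene before, had means of 12.7, 2313.2 and 5322.4 TPM, and GLOTRDRAFT_127955 means of 43.8, 10565 and 19850 TPM in the same order. Each of these 3 transcripts is 402 bases long, and the counts of the last 2 were partly divided between similar transcripts. Between GLOTRDRAFT_127957 and GLOTRDRAFT_127955 lies GLOTRDRAFT_74495, which was low throughout, with means of 2.73, 6.48 and 6.81 TPM. On the other side of the member GLOTRDRAFT_99467 had means of 18.3, 21.3 and 23.7 TPM. The member thus lay at the edge of a stretch of genes that were higher on necromass, and this stretch was picked out after its values were seen.

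The members were ordinary in transcript length. Their median was 1098 bases, beside 1203 bases for the 7681 transcripts with a glucose level from that of the lowest member upwards, and 6 members, or 4.14%, were shorter than 300 bases, beside 3.89%. All 145 are protein-coding genes of the reference table. Of these, 14 or 9.66% shared reads with similar transcripts, read from estimated counts that missed a whole number by over 0.01, beside 13.01% of all transcripts. Another gene of the reference overlaps 10 of the members, none of them in the runs described, and reads of overlapping genes may not be told apart.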

How the data were processed

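Per the labels' protocols, extraction used TRIzol with a PureLink kit, and the library kit was NEBNext Ultra II. The submitters' processing notes name kallisto 0.51.1 and DESeq2 1.48.2. The transcript set and genome build are not given in the sources used here. The authors deposited estimated counts, TPM values, lengths and effective lengths per transcript, per the file headers. Members were found from the deposited TPM. Fragment length was taken from effective lengths of transcripts of at least 2000 bases. Estimated counts were rounded, filtered with filterByExpr and scaled with TMM. They were fitted in 1 model of the 9 libraries with edgeR 4.0.16 in R 4.3.3, which was tested on simulated data. Standard errors were derived from the test, as the size of the log2 fold change over the square root of edgeR's F statistic. Alternatives were DESeq2 1.42.0, limma-voom (limma 3.58.1), other scalings, no filter, a replicate block, a fragment-length covariate and leaving out libraries. All 145 members matched the gene table of assembly Glotr1_1, used for names and gene order, with a break in that order at each drop in start position. Members and rules were chosen with earlier results of these data known. Genes are named for the highest glucose level, largest ratio, highest necromass level, widest glucose spread, extreme high-melanin to low-melanin ratio, nearness to the limit or place in the 3 longest runs. Genes named outside that rule, which include the other pairs, the neighbours and the steadiest or lowest members, were picked after their values were seen.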

Additional observations from a re-analysis of the deposited data

How the results depend on the processing

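Membership follows the limit: a 4-fold limit gave 255 members and a 10-fold limit 71. Other settings of the rule gave 116 to 174, with 103 to 145 of the 145 kept, and leaving out 1 library gave 137 to 162. The counts of members lower than on glucose stayed at 145 under every alternative of the count model. No fold change of the 34 named members changed direction or lost its call in any of 1156 repeats. The rule chose members by these differences in the same libraries, so both outcomes were largely fixed in advance and nothing is read from them. The count of members called between necromass types was 4 with the replicate number as a block, 3 with only the 6 libraries compared, 17 in DESeq2 and 1 to 11 when 1 library was left out; the cause was not tested. Same-numbered libraries did not deviate together (correlations of -0.516 to 0.0795), 0 of 9 correlated best with their own number, and the block left the counts against glucose at 145. As a percent of estimated counts the members held 6.08% (glucose), 0.456% (low-melanin) and 0.438% (high-melanin). Without the 4 transcripts led by GLOTRDRAFT_134131, an alternative chosen after seeing the data, they held 6.79% of TPM on glucose and 0.4645% on low-melanin necromass, and 144 members were found, 129 of them among the 145. Leaving out 1 library gave shares of 6.39% to 6.58% (glucose), 0.383% to 0.428% (low-melanin) and 0.411% to 0.420% (high-melanin). With 1 gene allowed between them, 36 members had a member as neighbour. Comparisons of protein sequence, promoter motifs and lists by function were not run.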
